A study of Mus musculus with 4 samples.

Results

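The cells described here are megakaryocyte progenitor-like cells of mouse bone marrow, profiled by droplet single-cell RNA sequencing. They were picked from all barcodes with at least 500 UMIs (unique molecular identifiers, each standing for 1 captured RNA molecule), at least 200 detected genes and at most 10% mitochondrial UMIs. A cell was a member when it held at least 2 UMIs of Pf4 and at least 1 UMI of Itga2b, no UMI of Car1, Ms4a2 or Cd79a, and under 10 Mpo UMIs per 10000 UMIs. This gave 391 members among 16280 kept cells, or 2.40%. The members came from 4 libraries, 2 of Idh1-R132H marrow (65 and 122 members in replicates 1 and 2) and 2 of Idh1-WT marrow (120 and 84 members).

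Idh1-R132H is the heterozygous mutant form of isocitrate dehydrogenase 1, which was recombined together with an EYFP reporter by 5 days of tamoxifen injection. The labels give the other 2 libraries as Idh1-WT, and both genotypes were sorted through an EYFP+ gate. EYFP+ lineage-negative marrow cells were taken 2 weeks after tamoxifen and transplanted into fully irradiated mice without supportive marrow, and the chimeric marrow was collected 16 weeks later. From each recipient, 4000 total CD45.1+ cells, 4000 LSK cells (lineage-negative, Sca1+, cKit+) and 4000 LK cells (lineage-negative, cKit+) went into a common tube, so a library mixes mature cells with sorted progenitors and its cell type shares do not give those of whole marrow. The Cre driver, strain, age and sex of the mice are not given in the sources used here. The series is about Idh1 mutation and neutrophil formation, and the comparison made here asks how the mutant and wild-type libraries differ within the megakaryocyte branch.

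Megakaryocytes are the large marrow cells that shed platelets. Their progenitors arise from stem cells and from bipotent megakaryocyte-erythroid progenitors under the hormone thrombopoietin and under the transcription factors Gata1, Fli1, Runx1 and Gfi1b. As they mature they build the platelet adhesion receptors (the GPIb-IX-V complex for von Willebrand factor and the integrin Itga2b-Itgb3 for fibrinogen), fill alpha granules with chemokines such as Pf4 and Ppbp, and lose stem cell genes such as Cd34 and Kit.

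The 4 libraries held 40364701 to 56353466 UMIs in all, and 765482 and 1398810 of these were in Idh1-R132H members, against 1536110 and 875355 in Idh1-WT members. Members had a median of 11331 and 10367 UMIs per cell in the Idh1-R132H libraries, against 12102.5 and 9724 in the Idh1-WT libraries, and 8105 in the rest of the kept cells. The median mitochondrial share of members was 2.11% and 2.24% in Idh1-R132H libraries and 2.09% and 2.201% in Idh1-WT libraries. Idh1-R132H replicate 1 and Idh1-WT replicate 1 had 345 kept barcodes in common, equal to 7.66% of the kept cells of Idh1-WT replicate 1, whereas the other 5 pairs of libraries had 13 to 33 in common. Among those 345, the median was 26895 UMIs in Idh1-R132H replicate 1 and 588 UMIs in Idh1-WT replicate 1. In 327 of them the first library held over 10 times the UMIs of the second. Of the members, 5 had a barcode that was kept in another library, namely 2 and 1 in the Idh1-R132H libraries and 1 and 1 in the Idh1-WT libraries. Results that rest on the libraries are given with and without such cells, and the cause of the overlap was not tested. Scrublet, a doublet caller, marked 111 of the kept cells (0.682%) and 4 members. Cells with UMIs of Xist, the RNA of the inactive X chromosome, and cells with UMIs of Y-linked genes occurred in every library. Among members, 53.8% and 38.5% of Idh1-R132H cells carried Xist and no Y-linked UMI, against 74.2% and 48.8% of Idh1-WT cells.

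The members carried the marker genes of the label, beside markers of stem cells and of pre-megakaryocyte-erythroid cells. Levels are given as CPM (UMI counts scaled to the same total in every library), computed from the counts summed over the cells of a library. Of 17 megakaryocyte markers, 16 were higher in the members than in the rest of the kept cells in all 4 libraries, beside 35.9% of 9126 genes with at least 5 CPM in either. The remaining marker, the collagen receptor Gp6, was at 0. Since Pf4 and Itga2b chose the cells, these counts are a description. The markers summed to 8271 and 6009 CPM in Idh1-R132H members and 6192 and 5786 CPM in Idh1-WT members, against 436 to 484 CPM in the rest of the kept cells. Without Pf4 and Itga2b, the other 15 summed to 2506 and 2113 CPM in Idh1-R132H members and 2197 and 2172 CPM in Idh1-WT members, against 388 to 416 CPM in the rest. Erythroid progenitor markers were summed without Car1, which the rule sets to 0. They came to 1146 and 1205 CPM in Idh1-R132H members and 1533 and 1365 CPM in Idh1-WT members. In 367 erythroid progenitor-like cells they came to 4824 to 5789 CPM, and in the rest of the same libraries to 633 to 809 CPM. Those erythroid cells were chosen by at least 1 UMI each of Klf1 and Car1 and no Pf4 UMI, so Klf1 raises their sum by choice. A second group for comparison, 124 pre-megakaryocyte-erythroid cells, held at least 1 UMI each of Gata1 and Gata2 and none of Pf4 or Car1. Both groups met the members' limits on Ms4a2, Cd79a and Mpo. Neutrophil markers summed to 1062 and 2276 CPM in Idh1-R132H members and 1438 and 2203 CPM in Idh1-WT members, against 25359 to 34671 CPM in the rest. Stem cell markers summed to 427 and 402 CPM in Idh1-R132H members and 385 and 466 CPM in Idh1-WT members. The rest had 243 to 300 CPM. Pre-megakaryocyte-erythroid markers summed to 575 and 574 CPM in Idh1-R132H and 587 and 610 CPM in Idh1-WT. The rest had 120 to 139 CPM. T and NK cell markers summed to 378 and 485 CPM in Idh1-R132H and 340 and 408 CPM in Idh1-WT. The rest had 749 to 786 CPM. Markers of 4 further cell types had low sums in the members, computed without the genes of the rule. Those of B cells summed to 19.6 and 31.5 CPM in Idh1-R132H and 37.1 and 38.8 CPM in Idh1-WT, with Ebf1 at 0 and Cd79b at a mean of 28.2 CPM. Those of basophils and mast cells summed to 50.9 and 76.5 CPM in Idh1-R132H and 46.2 and 32.0 CPM in Idh1-WT, and among them Fcer1a, a chain of the IgE receptor, averaged 16.5 CPM against 15.2 CPM in the rest. Those of dendritic cells summed to 70.5 and 156 CPM in Idh1-R132H and 90.5 and 173 CPM in Idh1-WT, with Siglech at 0 and H2-Aa, an MHC class II gene, at a mean of 51.0 CPM. Those of endothelial cells summed to 31.4 and 29.3 CPM in Idh1-R132H and 22.8 and 25.1 CPM in Idh1-WT, with Cdh5 at 0 and Pecam1, which platelets also carry, at a mean of 17.3 CPM. The sums of all 4 were below those in the rest of the kept cells, except for endothelial markers, which stood at 27.3 to 31.7 CPM there. Free RNA, taken from barcodes with at most 50 UMIs, was estimated at 4.94% and 7.59% of member UMIs in Idh1-R132H libraries and at 4.66% and 9.34% in Idh1-WT libraries.

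The platelet adhesion receptors led the genes that set the members apart. Gp1bb, a subunit of the von Willebrand factor receptor, averaged 186 ± 29.1 CPM in the members (SD, n = 4 libraries), against 3.30 CPM in the rest of the kept cells, a ratio of 56.4. The other subunits measured beside it were Gp9, at 152 ± 24.2 CPM against 13 CPM, and Gp5, at 109 ± 12.3 CPM against 6.64 CPM. The receptor subunit Gp1ba was low, at 5.48 CPM. The thrombin receptor subunit F2rl2 (PAR3) stood at 61.7 ± 7.86 CPM against 1.35 CPM, a ratio of 45.6, and the receptor F2r (PAR1) stood 8.25 times higher in the members. Treml1, a receptor stored in platelet alpha granules, reached 114 and 55.0 CPM in Idh1-R132H members and 60.5 and 78.8 CPM in Idh1-WT members, against a mean of 1.86 CPM in the rest. Idh1-R132H replicate 1 was the highest of the 4 libraries for Treml1 and for Pf4, the platelet chemokine that chose the cells, which stood at 5508 and 3613 CPM in Idh1-R132H members and 3756 and 3363 CPM in Idh1-WT members.

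Granule, signalling and lipid genes followed. Rab27b, which moves platelet dense granules to the membrane, averaged 77.5 CPM in members, 16.3 times its level in the rest. The alpha granule protein Vwf averaged 48.8 ± 8.83 CPM and the chemokine Ppbp 28.2 ± 7.05 CPM, both below the 50 CPM set for the ranked list. Plek, a protein kinase C substrate of platelets, stood at 115 ± 2.57 CPM, 6.10 times higher, with a narrow spread among libraries. The tetraspanin Cd9 averaged 673 CPM, the integrin-activating GTPase Rap1b 604 CPM, the adaptor Lat 106 CPM and Tbxas1, which makes thromboxane, 104 CPM, at 3.47 to 4.95 times the level in the rest. Mfsd2b, which exports sphingosine 1-phosphate from platelets and red cells, stood 9.01 times higher than in the rest. It averaged 57.2 CPM in members, but 74.2 CPM in erythroid progenitor-like cells.

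Transcription factors were less far apart. Gata1 stood 5.55 times higher in the members than in the rest, Mycn 4.16 times, Gfi1b 3.91 times and Mef2c 3.72 times. Gata1 averaged 73.1 CPM in members, 139 CPM in pre-megakaryocyte-erythroid cells, which it helped to choose, and 160 CPM in erythroid progenitor-like cells. Gfi1b averaged 60.3, 68.5 and 100 CPM in the same groups, so neither gene was highest in the members. Mycn, at 89.4, 59.4 and 8.07 CPM, and Mef2c, at 362, 197 and 41.8 CPM, were highest there. Fli1, an ETS factor of the megakaryocyte branch, averaged 131 ± 15.1 CPM in members and 16.0 CPM in the erythroid cells. Serpine2, a protease inhibitor that acts on thrombin, averaged 98.9 CPM in members and 0.896 CPM in the erythroid cells. At the other end, genes of neutrophil granules were lowest against the rest: the primary granule protease Elane averaged 376 CPM in members and 6357 CPM in the rest, the secondary granule peptide Camp 176 against 3468 CPM, and the calcium-binding protein S100a8 718 against 14719 CPM.

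**Figure D1:**
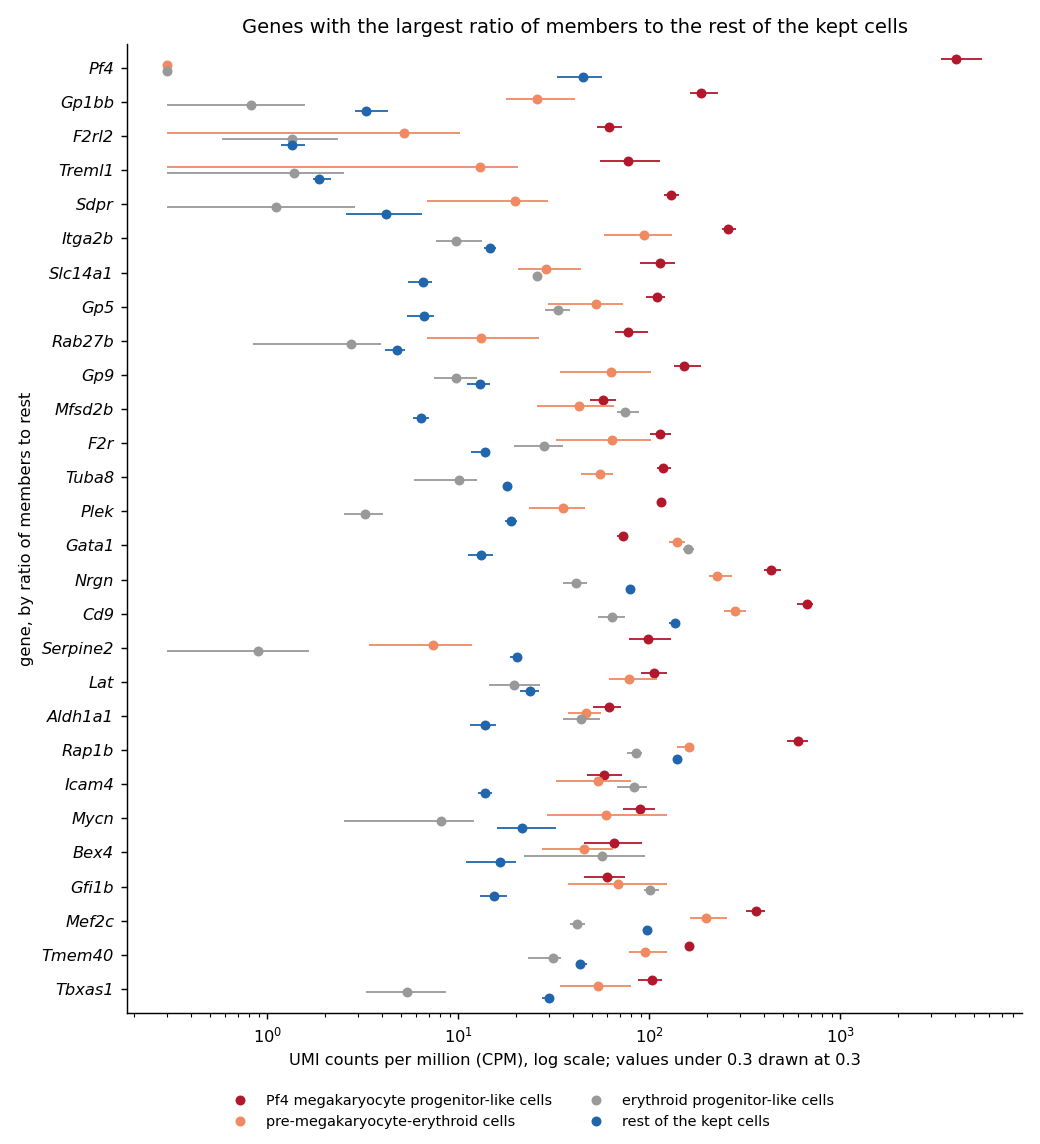
Level of 28 of the 30 genes with the largest ratio of members to the rest of the kept cells, among genes with at least 50 CPM in members. Points are means and lines run from the lowest to the highest of the 4 libraries, for the members, pre-megakaryocyte-erythroid cells, erythroid progenitor-like cells and the rest (log axis in CPM). Gp1bb, F2rl2 and Treml1 stand farthest from the rest after Pf4, and Gata1 is the gene of the list highest in the erythroid cells. The pre-megakaryocyte-erythroid and erythroid cells were chosen to hold no Pf4, and the former to hold Gata1.

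The promoters of the leading genes were read for the letters bound by the GATA and ETS families, to which Gata1, Gata2 and Fli1 belong. Promoters were taken from RefSeq on the GRCm38.p6 build, from 250 bases before to 50 bases after the annotated start, and 25 of the 30 leading genes had one. The letters GATAA, which read TTATC on the other strand, were in 8 of the 25 promoters (32%), against 25.8% of all 27025 promoters. The letters AGGAAG, which read CTTCCT on the other strand, were in 12 (48%), against 35.1%. Both were in 5 (20%), against 9.32%, namely Pf4, F2rl2, Gp5, Gp9 and Serpine2. The 2 motifs do not overlap each other in these 5 promoters, and a match of letters is a description only. The promoters of Gp9 (chr6:87777820-87778119, plus strand), Gp5 (chr16:30310732-30311031, minus strand) and F2rl2 (chr13:95696670-95696969, plus strand) are printed because they belong to receptor genes that separate the members from the erythroid cells and hold both motifs, which are in capitals. Each reads 5′ to 3′ on the strand of the gene.
Gp9: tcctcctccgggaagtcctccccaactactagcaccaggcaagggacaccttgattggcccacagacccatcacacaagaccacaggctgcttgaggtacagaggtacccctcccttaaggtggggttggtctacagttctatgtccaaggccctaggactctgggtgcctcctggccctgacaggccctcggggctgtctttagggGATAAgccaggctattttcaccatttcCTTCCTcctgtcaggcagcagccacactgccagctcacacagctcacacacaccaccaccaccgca
Gp5: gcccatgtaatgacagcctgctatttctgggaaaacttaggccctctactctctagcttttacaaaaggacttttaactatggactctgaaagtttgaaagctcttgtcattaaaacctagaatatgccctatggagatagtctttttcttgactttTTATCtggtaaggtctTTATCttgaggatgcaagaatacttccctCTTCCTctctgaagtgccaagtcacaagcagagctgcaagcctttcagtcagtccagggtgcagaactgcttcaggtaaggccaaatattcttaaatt
F2rl2: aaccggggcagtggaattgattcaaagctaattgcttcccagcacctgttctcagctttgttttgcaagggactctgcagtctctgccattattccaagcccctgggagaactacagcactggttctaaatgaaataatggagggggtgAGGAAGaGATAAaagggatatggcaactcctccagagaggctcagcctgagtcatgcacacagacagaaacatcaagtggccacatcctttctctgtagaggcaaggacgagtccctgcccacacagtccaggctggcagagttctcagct
In Gp9 and Gp5 the ETS letters are on the opposite strand and lie between the GATA letters and the start, and in F2rl2 the motifs lie 1 base apart.

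Single cells held several of these genes together. Of Gp9, Gp1bb, Gp5, Treml1 and F2rl2, none of which chose the cells, at least 3 were detected in 204 members (52.2%), against 137 of the 15889 other kept cells (0.862%). None of the 5 was detected in 42 members (10.7%), against 13285 other cells (83.6%). At their own depth, 69.1% of members had a Gp9 UMI and 60.4% a Gp1bb UMI, against 2.66% and 0.156% of 640 B cells (cells with Cd79a and Cd79b and no Pf4), which should lack both. The median depth was 10936 UMIs in members and 1926.5 UMIs in those B cells. With each cell thinned to 2000 UMIs, Gp9 was detected in 24.9% of 390 members, against 1.02% of 294 B cells. Gp1bb was detected in 24.4% of thinned members and in none of the thinned B cells.

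The threshold on Pf4 cut through a gradient. Cells that met the rule except that they held 1 Pf4 UMI numbered 204 and had 57.2 CPM of Gp9 and 17.6 CPM of Gp1bb. The 83 members with 2 Pf4 UMIs had 93.1 CPM of Gp9 and 40.01 CPM of Gp1bb. Members with 3 to 9 Pf4 UMIs (124 cells) had 129 and 60.9 CPM of these genes, and members with at least 10 (184 cells) had 190 and 309 CPM. The stem cell antigen gene Cd34 ran the other way, at 209, 149, 114 and 42.4 CPM over the same 4 steps.

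To describe how the members differ among themselves, those of each library were split into 3 equal ranges of Pf4 UMIs per 10000, with medians of 2.17, 8.09 and 82.3 and median depths of 11247, 9692 and 11512 UMIs. The ranges come from the same cells, so what follows is a description with no test. Of 2831 genes with at least 50 CPM in at least 1 range, 19.6% were higher and 17.8% lower in the highest range in all 4 libraries, and the median gene did not move (log2 ratio 0.02). Many platelet genes had their highest levels in the highest range, but not those of every list. Of 8 dense granule and secretion genes with at least 50 CPM, 2 were higher and 2 lower in the highest range in all 4 libraries, and the list summed to 1531, 1473 and 1521 CPM from the low to the high range. Of 6 eicosanoid enzyme genes 2 were higher and 1 lower. Serpine2 averaged 5.12 ± 1.43, 33.4 ± 26.0 and 240 ± 35.7 CPM in the low, middle and high ranges. Ppbp averaged 3.33, 10.8 and 65.9 CPM, and Vwf 8.61, 27.4 and 104 CPM. In the highest range Vwf had 135 and 95.5 CPM in Idh1-R132H members and 97.2 and 88.5 CPM in Idh1-WT members, and in the lowest range 12.4 and 8.0 CPM against 7.4 and 6.6 CPM. F2rl2 was 11.9 times higher in the highest range than in the lowest, Treml1 9.32 times, Gp1bb 8.29 times and the signalling regulator Rgs10 7.38 times. Actin-cytoskeleton genes did likewise, and Tmsb4x, which binds actin monomers, averaged 3189, 4539 and 10587 CPM. Clec1b, the platelet podoplanin receptor, averaged 0.464 CPM in the low range and 46.0 CPM in the high range.

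Other genes of the branch were flatter over the ranges. Gp9 was 1.96 times higher in the highest than in the lowest range, Gata1 1.78 times and Fli1 2.71 times. The homeobox gene Meis1 averaged 142, 181 and 137 CPM. Stem cell genes ran the other way. Cd34 averaged 148 ± 32.0, 68.3 and 35.8 ± 17.6 CPM, the stem cell factor receptor Kit averaged 71.3 CPM in the low and 28.8 CPM in the high range, and Hlf, Ly6a (Sca1), Mecom, Hoxa9 and Sox4 were 3.06 to 5.10 times lower in the highest range. The intermediate filament gene Vim averaged 176 ± 35.3 CPM in the lowest and 35.6 ± 5.04 CPM in the highest range. By list, 9 of 12 platelet receptor genes and 17 of 22 platelet cytoskeleton genes with at least 50 CPM were higher in the highest range in all 4 libraries, beside 19.6% of all 2831 genes. Conversely 7 of 8 stem cell genes, 12 of 18 G2 and M phase genes and 7 of 19 S phase genes were lower in all 4, beside 17.8%. So were 3 of 3 monocyte genes, 4 of 6 secondary granule genes and 3 of 4 interferon response genes. The same held for 5 of 10 primary granule genes, a list that here holds Mpo, which the rule limits. The part of other cells in these lists was not tested. The proliferation gene Top2a averaged 357 CPM in the lowest and 200 CPM in the highest range, and Mki67 94.5 and 74.8 CPM. Of the members, 80 and 50 lay within 1.5 times of the lower and the upper limit between ranges.

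**Figure D2:**
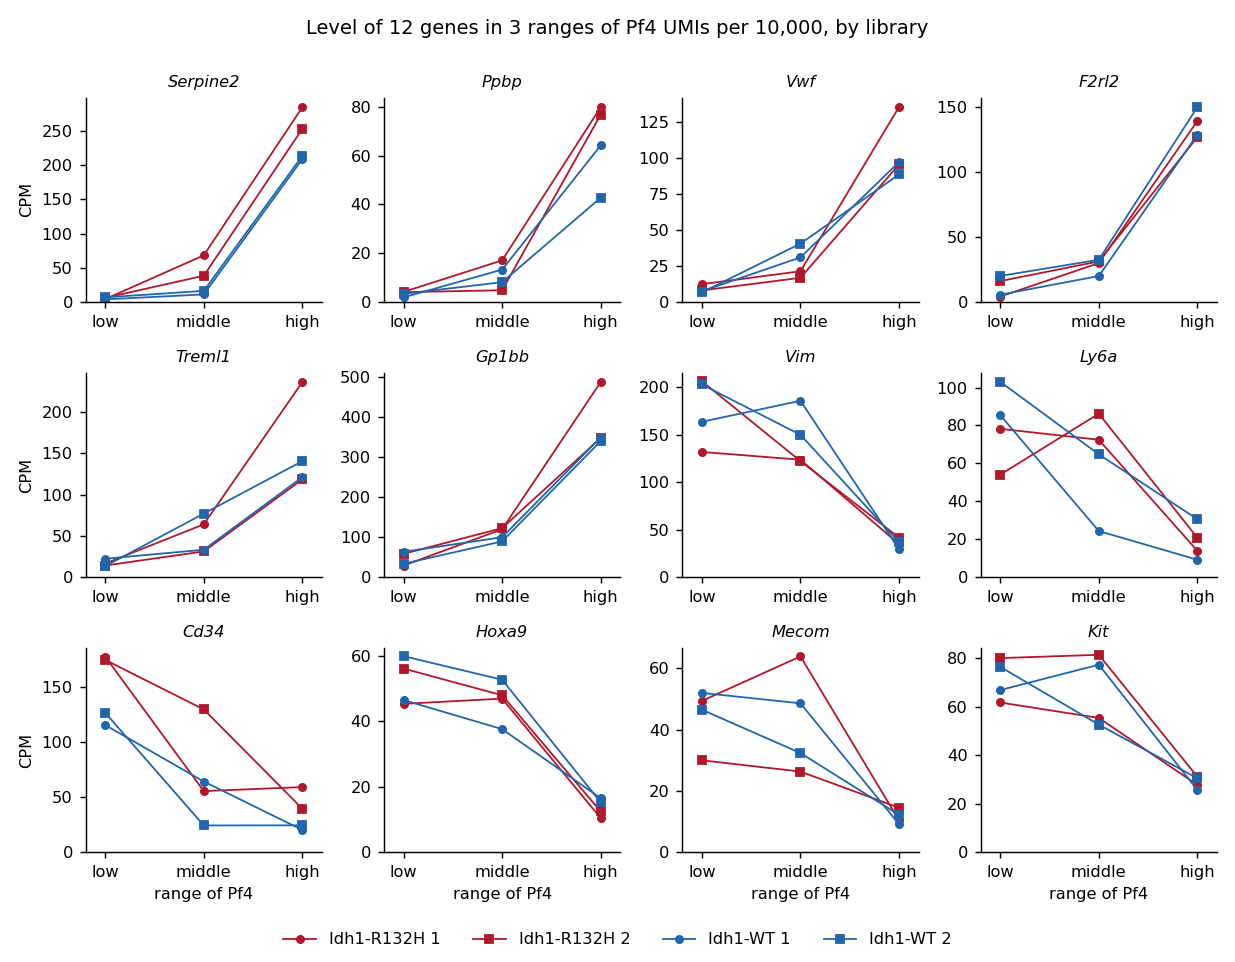
Level of 12 genes in CPM in the low, middle and high range of Pf4 UMIs per 10000, with 1 line for each library. Serpine2, Ppbp, Vwf, F2rl2, Treml1 and Gp1bb are higher in the high than in the low range in every library, with Serpine2 at 5.12 CPM in the low and 240 CPM in the high range on average, while Vim, Ly6a, Cd34, Hoxa9, Mecom and Kit are lower there.

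The share of members among kept cells did not differ detectably between the genotypes. It was 1.69% and 2.75% in Idh1-R132H libraries (95% exact binomial intervals 1.31 to 2.15% and 2.29 to 3.28%), against 2.66% and 2.40% in Idh1-WT libraries (2.21 to 3.18% and 1.92 to 2.96%). The intervals cover counting error only. The means were 2.22 ± 0.751% and 2.53 ± 0.190% (SD, n = 2 each), and a two-sided exact permutation test gave p = 1, where the smallest p that 2 against 2 libraries allow is 0.33. The groups overlapped, because the lowest and the highest share both came from Idh1-R132H. Without Idh1-R132H replicate 1 the difference was 0.223 percentage points in place of -0.308, so its direction rests on that library. Without the cells whose barcode was kept in another library the shares were 1.82% and 2.78%, against 2.89% and 2.41%. With every cell thinned to 2000 UMIs, 0.547% and 0.548% of Idh1-R132H cells and 0.779% and 0.651% of Idh1-WT cells met the rule (exact permutation p = 0.33), from 19 and 22 members against 29 and 20. The thinning left out 370 and 419 shallower Idh1-R132H cells and 779 and 435 Idh1-WT cells.

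Within the members, 2 genes differed between Idh1-R132H and Idh1-WT. Counts were summed over the members of each library and compared by edgeR's quasi-likelihood test with Benjamini-Hochberg adjustment over 7446 genes, calling an adjusted p under 0.05. The calls were 0.0269% of the genes tested, and both were higher in Idh1-R132H. At an unadjusted p under 0.05 stood 454 genes (6.10%), 240 higher (3.22%) and 214 lower (2.87%), and DESeq2 called 1 gene (0.0134%). Each library is 1 recipient mouse, and nothing in the labels says whether the grafts of 1 genotype came from separate donors, so the p-values measure the spread between these libraries.

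Hist1h2ap, a replication-dependent histone H2A gene (chromosome 13, 21833026 to 21833507, minus strand, GRCm38), was higher in Idh1-R132H members. It had 6162 and 6420 CPM in Idh1-R132H members, against 4501 and 3870 CPM in Idh1-WT members. The groups did not overlap. The means were 6291 ± 182 and 4186 ± 446 CPM (SD, n = 2 each), a log2 fold change of 0.60 (SE 0.06, edgeR adjusted p = 3.0e-05). The RNA was widespread, with a UMI in 95.2% of Idh1-R132H and 93.1% of Idh1-WT members. In the rest of the kept cells the gene stood at 2854 and 3306 CPM in Idh1-R132H and 3115 and 2562 CPM in Idh1-WT, where the groups overlapped. Histone H2A genes of this cluster are nearly identical copies, so reads could be split among them in the counting, and their messages mostly end without the poly(A) tail on which the capture relies.

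By Pf4 range, the Hist1h2ap difference was widest in the low range. In the low Pf4 range it stood at 8745 and 8663 CPM in Idh1-R132H and 6256 and 3234 CPM in Idh1-WT. In the middle range it stood at 5143 and 6784 CPM in Idh1-R132H and 3352 and 4818 CPM in Idh1-WT. In the high range it stood at 4814 and 3777 CPM in Idh1-R132H and 3723 and 3740 CPM in Idh1-WT. The groups did not overlap in any range, but the second Idh1-R132H library lay close to both Idh1-WT libraries in the high range. Among the members with at least 10 Pf4 UMIs the log2 fold change was 0.18 (edgeR adjusted p = 0.782) and no gene was called, with 331 at an unadjusted p under 0.05. The difference between the ranges was not itself tested.

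Xlr, an X-linked lymphocyte-regulated gene (X chromosome, 53777118 to 53797706, minus strand), was counted only in Idh1-R132H members and was chosen for mention after its values were seen. Idh1-R132H members held 14 and 22 UMIs of Xlr in 17 cells, against 0 and 0 in Idh1-WT members (edgeR adjusted p = 0.00137). Against a limit of 3 counts over the Idh1-WT group, this is at least 13.4-fold higher. Outside the members it had 20.9 and 21.3 CPM in Idh1-R132H and 2.77 and 0.177 CPM in Idh1-WT, so the pattern was shared with the rest of the kept cells. DESeq2 gave an adjusted p of 0.120. Xlr has near-identical relatives on the X chromosome, and Xist-carrying cells were 53.8% and 38.5% of Idh1-R132H and 74.2% and 48.8% of Idh1-WT members; the part of either in the result was not tested.

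The number of calls depended on which cells and libraries entered the fit, and the prior degrees of freedom of the fit changed with them. Without the 5 members whose barcode was kept in another library, 26 genes were called, 16 higher and 10 lower. Besides Hist1h2ap (adjusted p = 1.2e-38) and Xlr (2.1e-06), these held Dnaja1 and Mt1 (both 0.000162), Cd52 (0.000986), Car2 (0.00368), Cd34 (0.00651) and Gt(ROSA)26Sor (0.00965), all by edgeR with Benjamini-Hochberg adjustment. These genes were among the nearest to the threshold with all members kept. The prior degrees of freedom, which set how far each gene's spread is drawn to that of other genes, were infinite without the 5 members. They were 28.5 with all members. The Hist1h2ap log2 fold change hardly moved, at 0.63 against 0.60, so its smaller p does not stand for a larger difference. The part of the prior in the added calls was not tested. With each library left out in turn, 11 to 29 genes were called: 29 without Idh1-R132H replicate 1, 11 without Idh1-R132H replicate 2, 21 without Idh1-WT replicate 1 and 19 without Idh1-WT replicate 2. Hist1h2ap was among the calls in all 4 leave-outs and Xlr in 3.

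**Figure D3:**
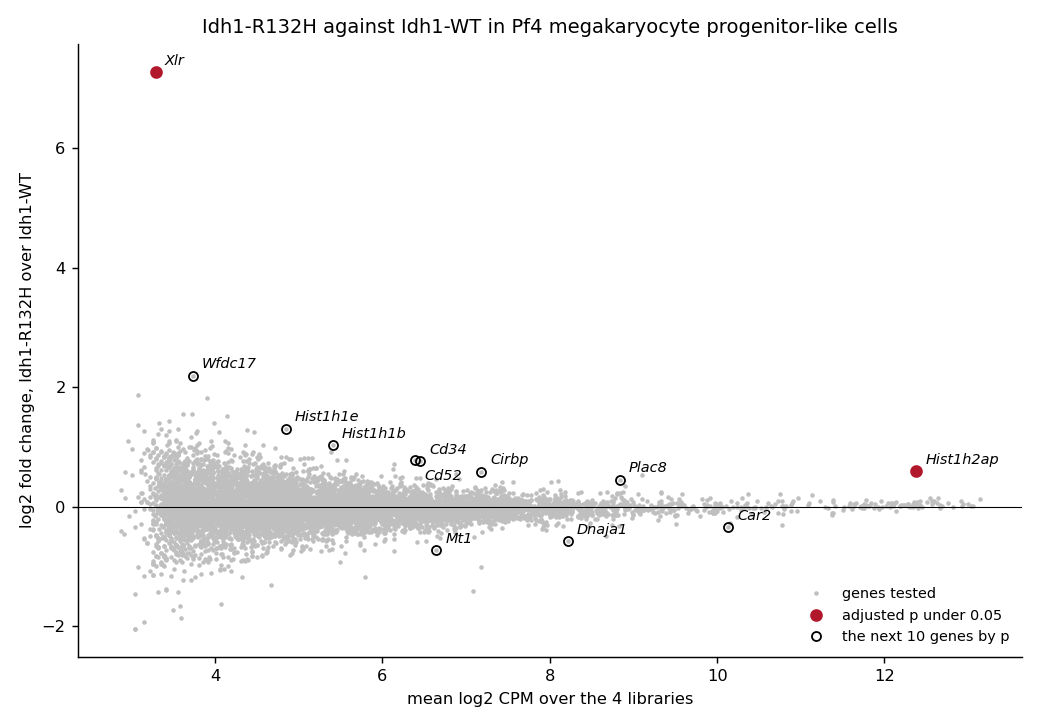
Log2 fold change of Idh1-R132H over Idh1-WT against the mean log2 CPM, for the 7446 genes tested in the members. Those among them that chose the cells are not drawn. The 2 filled points, Hist1h2ap and Xlr, passed an adjusted p of 0.05, and the open circles are the 10 genes next by p. The fitted value of Xlr is no bound, because its Idh1-WT libraries are at 0.

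Among the genes nearest to the threshold, chosen by their p-values, Cd34 and Cd52 had higher values in Idh1-R132H. Cd34 had 95.4 and 114 CPM in Idh1-R132H members, against 66.4 and 59.4 CPM in Idh1-WT members (log2 fold change 0.76, SE 0.16, edgeR adjusted p = 0.0698). The leukocyte surface glycoprotein gene Cd52 had 94.1 and 109 CPM, against 66.4 and 51.4 CPM in Idh1-WT (0.78, adjusted p = 0.0698). In the low Pf4 range Cd34 stood at 177 and 174 CPM in Idh1-R132H, against 115 and 126 CPM in Idh1-WT. Neither gene's groups overlapped over all members. In the rest of the kept cells Cd34 did not overlap either, at 180 and 179 CPM in Idh1-R132H and 170 and 149 CPM in Idh1-WT, whereas Cd52 did.

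Other near-threshold genes had lower values in Idh1-R132H. Mt1, a metal-binding metallothionein, had 73.2 and 70.8 CPM in Idh1-R132H members, against 123 and 115 CPM in Idh1-WT members (log2 fold change -0.73, edgeR adjusted p = 0.0698). Dnaja1, a co-chaperone of Hsp70, had 230 and 231 CPM in Idh1-R132H, against 299 and 409 CPM in Idh1-WT (-0.58, adjusted p = 0.0698). Without Idh1-WT replicate 2 the Dnaja1 difference was -0.37 (adjusted p = 0.435). Car2, the carbonic anhydrase of red cell and megakaryocyte progenitors, had 911 and 1017 CPM in Idh1-R132H, against 1288 and 1176 CPM in Idh1-WT (-0.34, adjusted p = 0.0698). None of these groups overlapped. In the rest of the kept cells Car2 did not overlap either, at 469 and 481 CPM in Idh1-R132H and 571 and 527 CPM in Idh1-WT. Mt1 and Dnaja1 overlapped there.

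Of 17 tested histone genes whose symbols start with Hist, 13 were higher and 4 lower in Idh1-R132H members. An unadjusted p under 0.05 was reached by 8, 7 of them higher, beside 6.10% of all 7446 genes. Apart from Hist1h2ap none passed the threshold. The linker histone gene Hist1h1e had 45.7 and 34.3 CPM in Idh1-R132H members and 16.9 and 13.7 CPM in Idh1-WT members (log2 fold change 1.31, edgeR adjusted p = 0.0698). Hist1h1b had 61.4 and 50.04 CPM in Idh1-R132H and 28.0 and 25.1 CPM in Idh1-WT (1.03, adjusted p = 0.073). Hist1h4h was on the other side, at 6.53 and 4.29 CPM in Idh1-R132H and 14.97 and 12.6 CPM in Idh1-WT (adjusted p = 0.568), and Hist1h1c overlapped, at 40.5 and 60.8 CPM in Idh1-R132H and 42.3 and 66.3 CPM in Idh1-WT. In the rest of the kept cells Hist1h1e had 22.1 and 24.3 CPM in Idh1-R132H and 17.4 and 17.7 CPM in Idh1-WT. Hist1h1b had 29.9 and 33.3 CPM in Idh1-R132H and 26.8 and 27.1 CPM in Idh1-WT there. Neither overlapped in the rest, whereas Hist1h4h and Hist1h1c did. Gt(ROSA)26Sor, a noncoding gene of the locus often used to carry reporters, had 19.6 and 21.4 CPM in Idh1-R132H members and 3.91 and 9.14 CPM in Idh1-WT members (1.82, adjusted p = 0.103). Idh1 itself had 14.4 and 11.4 CPM in Idh1-R132H and 14.3 and 20.6 CPM in Idh1-WT (adjusted p = 0.904). These 3′ counts do not read the mutated codon, so they check nothing about the labels.

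**Figure D4:**
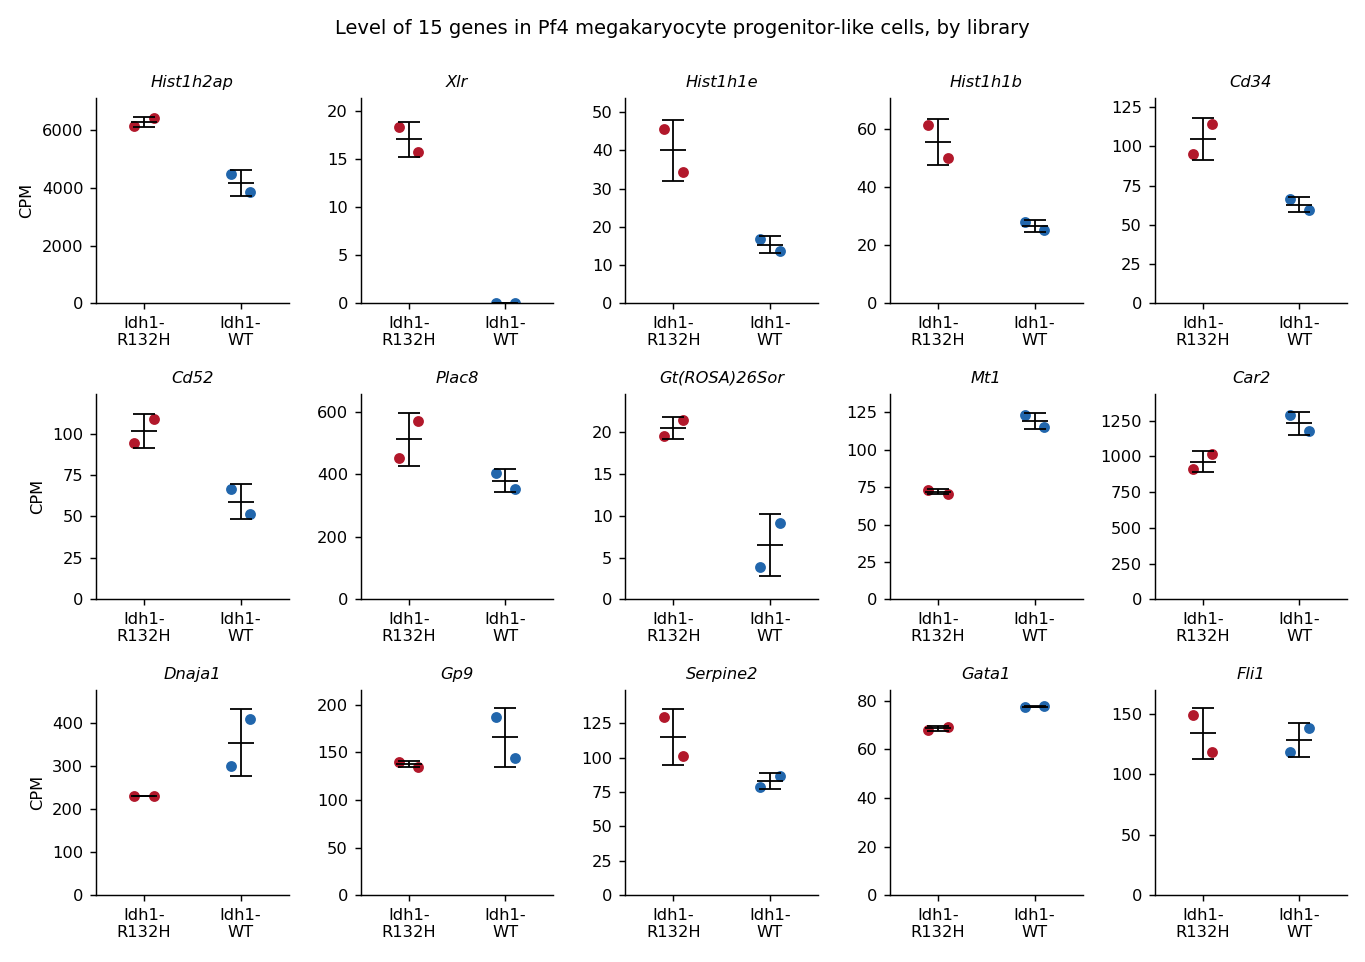
Level in CPM of 15 genes in the members of each library, Idh1-R132H left and Idh1-WT right. Points are libraries, and bars are the mean and SD (n = 2 each). Hist1h2ap stands at 6291 CPM on average in Idh1-R132H and 4186 CPM in Idh1-WT, and Fli1 overlaps between the genotypes.

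Platelet genes showed no call between the genotypes. Of 24 tested platelet receptor and adhesion genes, 17 were higher and 7 lower in Idh1-R132H, with a median log2 fold change of 0.14 beside a median near 0 over all 7446 genes. An unadjusted p under 0.05 was reached by 3 of them (12.5%, beside 6.10% of all genes). Gp9 had 140 and 135 CPM in Idh1-R132H members and 187 and 144 CPM in Idh1-WT members (log2 fold change -0.29, edgeR adjusted p = 0.792). Without Idh1-WT replicate 1 the Gp9 difference was -0.0486 and without Idh1-WT replicate 2 it was -0.44. Cd9 had 717 and 696 CPM in Idh1-R132H and 591 and 688 CPM in Idh1-WT (0.16, adjusted p = 0.812). Among 13 alpha granule genes, Serpine2 had 129 and 101 CPM in Idh1-R132H and 78.8 and 86.8 CPM in Idh1-WT (0.47, adjusted p = 0.568). Vwf had 61.4 and 40.7 CPM in Idh1-R132H and 46.2 and 46.8 CPM in Idh1-WT, where the groups overlapped. Of 18 dense granule and secretion genes, Slc35d3, a sugar nucleotide transporter needed for dense granules in mice, had 27.4 and 21.4 CPM in Idh1-R132H and 9.77 and 5.71 CPM in Idh1-WT (1.52, adjusted p = 0.133).

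The transcription factors of the branch were evenly split, with 15 of 30 on each side and a median log2 fold change of -0.03. Gata1 had 67.9 and 69.3 CPM in Idh1-R132H members and 77.5 and 77.7 CPM in Idh1-WT members (log2 fold change -0.16, edgeR adjusted p = 0.913). Gata2 had 110 and 104 CPM in Idh1-R132H and 135 and 130 CPM in Idh1-WT (-0.31, adjusted p = 0.782). Gfi1b, a repressor needed for both platelets and red cells, had 57.5 and 45.8 CPM in Idh1-R132H and 63.8 and 74.3 CPM in Idh1-WT (-0.42, adjusted p = 0.765). The groups of these 3 genes did not overlap, but none passed the test. Fli1 and Runx1 overlapped between the genotypes, at adjusted p of 0.982 and 0.904.

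In the signalling and cytoskeleton lists most differences were small. Of 32 thrombopoietin and activation signalling genes, 25 were higher and 7 lower in Idh1-R132H, with a median log2 fold change of 0.13. Rgs10 had 135 and 137 CPM in Idh1-R132H members and 80.7 and 113 CPM in Idh1-WT members (log2 fold change 0.55, edgeR adjusted p = 0.286). Gnaq, the G protein subunit that relays thromboxane and thrombin signals, had 22.2 and 21.4 CPM in Idh1-R132H and 10.4 and 10.3 CPM in Idh1-WT (1.07, adjusted p = 0.479). Of 31 cytoskeleton genes 13 were higher and 18 lower. The eicosanoid list gave 3 higher and 5 lower of 8, with none at an unadjusted p under 0.05.

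More cell cycle genes were higher than lower in Idh1-R132H, and none was called. Of 24 G2 and M phase genes 17 were higher, with 5 (20.8%, beside 6.10% of all genes) at an unadjusted p under 0.05, and the list summed to 4410 and 4276 CPM in Idh1-R132H members and 4272 and 3692 CPM in Idh1-WT members. Idh1-WT replicate 2 was lowest, and the other 3 libraries lay close together. Of 23 S phase genes 16 were higher, with 3 at that level, and the sums overlapped, at 2979 and 2766 CPM in Idh1-R132H and 2792 and 2616 CPM in Idh1-WT. Top2a, the topoisomerase of dividing cells, had 286 and 323 CPM in Idh1-R132H members and 234 and 225 CPM in Idh1-WT members (log2 fold change 0.43, edgeR adjusted p = 0.133). The helicase gene Mcm3 had 166 and 172 CPM in Idh1-R132H and 149 and 127 CPM in Idh1-WT (0.29, adjusted p = 0.757). Ccnb1, the mitotic cyclin B1, was on the other side, at 116 and 95.8 CPM in Idh1-R132H and 133 and 129 CPM in Idh1-WT (-0.33, adjusted p = 0.757).

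Among the remaining lists, erythroid, immediate early and cholesterol synthesis genes were mostly lower in Idh1-R132H, and none was called. Of 11 erythroid genes 9 were lower, with 3 (27.3%, beside 6.10% of all genes) at an unadjusted p under 0.05. These were Car2, Mt1 and, on the higher side, Cited4. Of 15 immediate early genes 11 were lower, with a median log2 fold change of -0.17, and of 17 cholesterol synthesis genes 13 were lower, with a median of -0.13. Immediate early genes summed to 1178 and 1222 CPM in Idh1-R132H members and 1250 and 1573 CPM in Idh1-WT members, and cholesterol synthesis genes to 504 and 442 CPM in Idh1-R132H and 514 and 636 CPM in Idh1-WT. In both lists Idh1-WT replicate 2 was the highest library by a wide margin, and Idh1-WT replicate 1 lay close to an Idh1-R132H library. The rest of the kept cells had a like pattern. There immediate early genes summed to 1254 and 1222 CPM in Idh1-R132H and 1273 and 1497 CPM in Idh1-WT. Cholesterol synthesis genes summed to 428 and 404 against 441 and 518 CPM, and erythroid genes to 1223 and 1346 against 1586 and 1407 CPM. These lists are thus not particular to the members. Fdps, which makes farnesyl diphosphate, had 70.5 and 60.8 CPM in Idh1-R132H members and 80.7 and 125 CPM in Idh1-WT members (log2 fold change -0.59, edgeR adjusted p = 0.449). Of 83 ribosomal protein genes 64 were higher with a median of 0.02, and of 17 interferon response genes 11 were lower with a median of -0.05. Of 16 stem cell genes 10 were higher and 6 lower, with a median of 0.03. Beside Cd34, the stem cell factor gene Hlf had 15.7 and 27.9 CPM in Idh1-R132H and 26.7 and 41.1 CPM in Idh1-WT, where the groups overlapped.

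Most primary granule, monocyte and mast cell genes were higher in Idh1-R132H, again without a call, and secondary granule genes were not. Of 11 primary granule genes 9 were higher and 5 (45.5%, beside 6.10% of all genes) had an unadjusted p under 0.05. Of 6 monocyte genes 5 were higher and 3 (50%) had such a p. Of 5 basophil and mast cell genes 4 were higher and 4 (80%) had such a p. Of 9 secondary granule genes 4 were higher and 5 lower, with a median log2 fold change of -0.00961, and the neutrophil marker sums overlapped between the genotypes. Plac8 had 452 and 571 CPM in Idh1-R132H members and 405 and 353 CPM in Idh1-WT members (log2 fold change 0.45, edgeR adjusted p = 0.086). The cathepsin gene Ctss had 26.1 and 17.2 CPM in Idh1-R132H and 10.4 and 3.43 CPM in Idh1-WT (1.39, adjusted p = 0.427). Cpa3, a mast cell protease also made by early progenitors, had 31.4 and 27.2 CPM in Idh1-R132H and 10.4 and 14.9 CPM in Idh1-WT (1.26, adjusted p = 0.142). Granulocyte-monocyte progenitor markers without Mpo, which the rule limits, summed to 904 and 1059 CPM in Idh1-R132H members and 931 and 863 CPM in Idh1-WT members, where the groups overlapped. Monocyte markers summed to 900 and 674 CPM in Idh1-R132H and 605 and 468 CPM in Idh1-WT, with no overlap. Among these markers, 5 cells held 77.3% of the Ctss UMIs and 37.5% of the Lyz2 UMIs of Idh1-R132H members. In Idh1-WT members 5 cells held 78.9% and 20.2%. The monocyte gene list is a different set from these markers. Over all members it summed to 1099 and 879 CPM in Idh1-R132H and 766 and 651 CPM in Idh1-WT. In the low Pf4 range the list overlapped, at 844 and 1211 CPM in Idh1-R132H and 1078 and 741 CPM in Idh1-WT. It stood at 2041 and 702 against 692 and 680 CPM in the middle range, and at 545 and 687 against 519 and 546 CPM in the high range. With that estimate of free RNA subtracted the Elane difference was -1.38 (edgeR adjusted p = 0.975), against 0.23 on the log2 scale with all counts. That of Ly6c2 was -0.66 (adjusted p = 0.994), against 0.37. What is left after the subtraction depends on the amount assumed. No other named gene of these lists that was still tested changed sign with free RNA subtracted. How much of their differences came from other cells or free RNA was not tested.

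The genotype difference of the members was also compared with that of the other cells of the same libraries, with library as a block. Against the rest of the kept cells, 6 of 12848 genes (0.0467%) had a difference in members that departed from the difference in the rest (edgeR adjusted p under 0.05), 5 of them higher (0.0389%) and 1 lower (0.00778%) in the members, and 575 had an unadjusted p under 0.05. Hist1h2ap led, at a log2 difference of 0.47 (SE 0.04, adjusted p = 3.0e-22), followed by Plac8 (0.36, adjusted p = 0.00018), Cd52 (0.71, 0.0093) and Cpa3 (1.42, 0.0192). Mt1 was the gene in the other direction (-0.64, adjusted p = 0.027). The fit estimated the prior degrees of freedom as infinite, and without a library block, where they were 24.4, Hist1h2ap stood at 0.47 (adjusted p = 0.972) and no gene was called. With each library left out in turn, Hist1h2ap was called in 4 of 4 fits, Plac8 and Cd52 in 2, Dntt in 1 (without Idh1-R132H replicate 1), and Cpa3 and Mt1 in 0. The lowest values of Plac8 and Dntt, 0.18 and 0.93, came without Idh1-R132H replicate 2 (adjusted p = 0.999 for both), and the highest value of Plac8 was 0.48. Cd52 was not called without Idh1-R132H replicate 2 (0.66) or Idh1-WT replicate 2 (0.53). Plac8 was not called without Idh1-WT replicate 2 either (0.30). Cd52 had 616 and 671 CPM in Idh1-R132H cells outside the members and 603 and 666 CPM in Idh1-WT cells outside them, where the groups overlapped. In erythroid progenitor-like cells, however, Cd52 had 69.7 and 75.2 CPM in Idh1-R132H and 42.1 and 33.7 CPM in Idh1-WT, and Plac8 had 867 and 877 CPM in Idh1-R132H and 667 and 764 CPM in Idh1-WT, so neither overlapped there, on the same side as in the members. Cpa3 outside the members had 60.2 and 66.3 CPM in Idh1-R132H and 61.3 and 90.6 CPM in Idh1-WT. The last call, Dntt (3.36, adjusted p = 0.0014), an enzyme of lymphoid progenitors, had 2 and 29 UMIs in Idh1-R132H members and 2 and 1 UMIs in Idh1-WT members, and 17 of the 29 UMIs came from 1 cell of 6 with a UMI. The other 12 UMIs equal 8.58 CPM, and no fit without that cell was run. The members and the rest differ widely in size, with 391 cells against 15889. Without cells of shared barcodes 11 genes were called.

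Against the 367 erythroid progenitor-like cells, which are a closer match in number and lineage, 4 of 8352 genes (0.0479%) differed, 1 higher (0.012%) and 3 lower (0.0359%) in the members, and 504 had an unadjusted p under 0.05. Hist1h2ap again stood out, with a log2 difference of 0.54 (edgeR adjusted p = 1.8e-10): in erythroid cells it had 2772 and 3274 CPM in Idh1-R132H and 3201 and 2623 CPM in Idh1-WT. The Mt1 difference had opposite signs in the 2 cell groups, where neither passed the test on its own (adjusted p = 0.0698 in the members and 0.307, at a log2 fold change of 0.21, in erythroid cells). Mt1 had 73.2 and 70.8 CPM in Idh1-R132H members, against 123 and 115 CPM in Idh1-WT members, but 981 and 1021 CPM in Idh1-R132H erythroid cells, against 906 and 808 CPM in Idh1-WT erythroid cells (difference -0.95, adjusted p = 4.6e-05). Ccnd2, a cyclin of the G1 phase, had 214 and 262 CPM in Idh1-R132H members and 270 and 326 CPM in Idh1-WT members (difference -0.67, adjusted p = 0.0495), and with a library left out it was called only without Idh1-R132H replicate 2, over a range of -0.93 to -0.48. In erythroid cells Ccnd2 had 184 and 165 CPM in Idh1-R132H and 115 and 151 CPM in Idh1-WT. The heat shock gene Hspa1a varied as much within a genotype as between them, at 50.9 and 20.7 CPM in Idh1-R132H members and 41.7 and 120 CPM in Idh1-WT members (difference -1.24, adjusted p = 0.0335), and it was not called without Idh1-R132H replicate 1 (-1.20) or Idh1-WT replicate 1 (-1.06). Hist1h2ap and Mt1 were called in all 4 leave-outs.

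**Figure D5:**
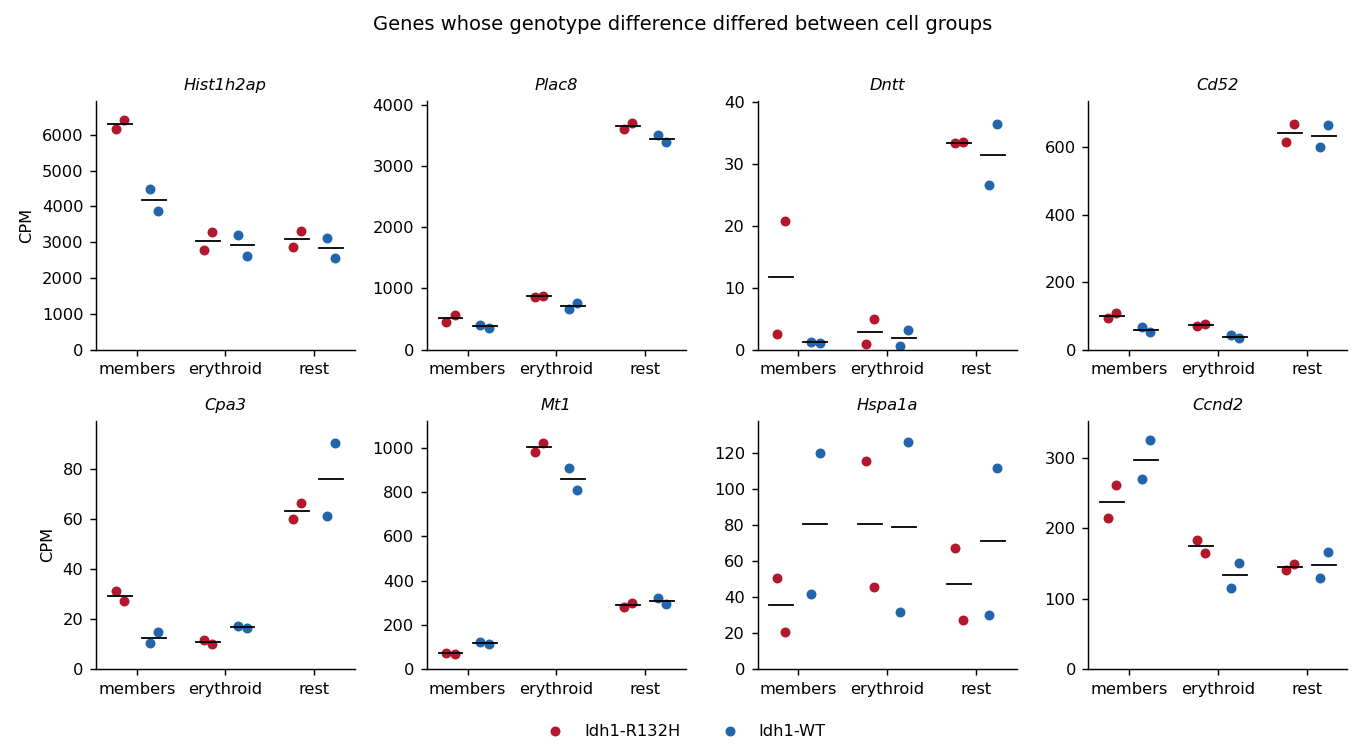
Level in CPM of the 8 genes whose genotype difference in the members departed from that in the rest of the kept cells or in erythroid progenitor-like cells. Points are libraries, Idh1-R132H left of Idh1-WT, and lines are means. Hist1h2ap is separated between the genotypes in the members, at 6162 and 6420 CPM against 4501 and 3870 CPM, and overlaps in the other 2 cell groups.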

How the data were processed

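Bone marrow cells of 4 mice were profiled with 10x Genomics 3′ v2 chemistry, and the authors deposited, per library, UMI counts per gene and barcode, which are raw and not normalized. Per the submitters' processing notes the tools were Cell Ranger 4.0.0 and Seurat and the build was GRCm38 (mm10), and per the labels' protocols each library holds 1 mouse. Barcodes were filtered and members chosen as stated in the report. Counts were summed over the members of each library and scaled to a common total (CPM). Genotypes were compared with edgeR 4.0.16 (R 4.3.3) using trimmed-mean normalization, its default filter on low counts and a robust quasi-likelihood fit, with DESeq2 1.42.0 as an alternative. The genotype difference was compared between members and other cells in a model with library as a block, and shares by an exact permutation test. The genes Pf4, Itga2b, Car1, Ms4a2, Cd79a and Mpo chose the cells, and no test result is given for them. Those with enough counts stayed in the fits and in the number of genes tested. Counts of calls with a library left out can therefore include them, as Pf4 was without Idh1-R132H replicate 2. Members against the rest of the kept cells is a description with no test. Doublet scores came from Scrublet in scanpy 1.11.5, and no cell was removed by them except as an alternative. The edgeR script was tested on simulated data.

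The members and gene lists were chosen with earlier results of these data known. Named were up to 10 rises and 10 falls among calls whose log2 CPM averaged 5 or more, up to 4 genes with the smallest p of each list, fixed genes of the branch, the 30 largest ratios of members to the rest at 50 CPM or more, and the 10 interaction calls with the smallest p. Xlr, Dnaja1, Cd52, Hist1h1e, Hist1h1b, Hist1h4h, Hist1h1c and single markers of other cell types were picked once their values had been seen, and so were genes beyond the 30 largest ratios. Depth limits the precision: 765482 to 1536110 UMIs stood behind the members of a library. The alternatives were other normalizations, filters and cell thresholds, removal of doublet scores, free RNA or shared barcodes, equal cell numbers, Xist-carrying members, members with more Pf4 and each library left out. Of 27998 gene IDs in the files, 27645 matched the GRCm38 annotation. A few genes under the naming rule are not reported here.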

Additional observations from a re-analysis of the deposited data

Results flagged for a closer look

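The genotype difference in the members departed from that in other cells of the same libraries for the genes below (genotype by cell group term of edgeR's quasi-likelihood test, log2 scale, members minus other cells, Benjamini-Hochberg adjustment). Against the rest of the kept cells these were Hist1h2ap (0.47), Plac8 (0.36), Dntt (3.36), Cd52 (0.71), Cpa3 (1.42) and Mt1 (-0.64). Against erythroid progenitor-like cells they were Hist1h2ap (0.54), Mt1 (-0.95), Hspa1a (-1.24) and Ccnd2 (-0.67). Hist1h2ap and Mt1 were called against both. Of the 29 Dntt UMIs in members of Idh1-R132H replicate 2, 17 came from 1 of 6 cells, and no fit without that cell was run; without that library the difference was 0.93 (adjusted p = 0.999). The Hspa1a libraries overlapped between the genotypes in the members, at 50.9 and 20.7 CPM in Idh1-R132H and 41.7 and 120 CPM in Idh1-WT. With 2 libraries per genotype, no group was large enough to look for a library far from the others.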

How the results depend on the processing

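Hist1h2ap kept its direction and call in 15 of 16 other settings and in all 4 leave-outs of a library, with the exception of members with at least 10 Pf4 UMIs (0.18 on the log2 scale, edgeR adjusted p = 0.782). Xlr was called in 11 of the 16 and 3 of the 4, and not by DESeq2 (adjusted p = 0.120). The number of genes called, 2 in the report, was 1 with DESeq2, 21 with no filter on low counts, 13 with at least 3 Pf4 UMIs, 15 with Gp9 required, 8 with equal cell numbers, 1 among Xist-carrying members, 0 with at least 10 Pf4 UMIs, 26 without barcodes shared between libraries and 11 to 29 with a library left out. The prior degrees of freedom of the fit within the members were 28.5 in the report and infinite with no filter, Gp9 required, shared barcodes removed or a library left out. The deviations of Idh1-R132H replicate 1 and Idh1-WT replicate 1 correlated at 0.0265. A single correlation cannot show whether same-numbered libraries were handled together, and these 2 libraries had 345 kept barcodes in common. With the replicate number as a block 1 gene was called. The genes whose difference departed from the rest, 6 in the report with infinite prior degrees of freedom, were 0 without a library block, where they were 24.4, 11 without shared barcodes and 4 to 11 with a library left out. Those that departed from erythroid cells, 4 in the report, were 17 with no filter, 10 without shared barcodes and 8 to 18 with a library left out. The share difference, -0.308 percentage points in the report, was 0.00164 with at least 10 Pf4 UMIs and -0.839 to 0.223 with a library left out. For named genes, 1603 values under other settings gave 23 changes of sign and 440 leave-out values gave 15. On the log2 scale these were Ptgs1 (-0.0251 with 3 Pf4 UMIs, -0.10 with 10), Lcn2 (0.18 with 3, 0.22 with 10, 0.0354 without high Scrublet scores, 0.42 among Xist-carrying members), Cd74 (-0.0836 without high Scrublet scores), Elane (-1.38), Ly6c2 (-0.66) and Idh2 (0.00225) with free RNA subtracted, Idh2 (0.0173), Mmrn1 (-0.0545), Tbxas1 (0.13) and Esam (0.18) with 10 Pf4 UMIs, Esam (0.016), Nkg7 (-0.00647) and Vwf (-0.0411) with equal cell numbers, Tmsb4x (-0.0603), Cst7 (-0.0419), Nkg7 (-0.0452), Chil3 (-0.0119) and Vwf (-0.15) among Xist-carrying members and Vwf (-0.0305) without shared barcodes. With a library left out the ranges that crossed 0 were -0.0579 to 0.589 for Mmrn1, -0.00935 to 0.278 for Ptgs1, -0.0906 to 0.0575 for Idh2, -0.0743 to 0.240 for Fli1, -0.17 to 0.41 for Vwf, -0.25 to 0.15 for Tbxas1, -0.0512 to 0.280 for mt-Atp8, -0.40 to 0.37 for Ngp, -0.59 to 0.59 for Cd74 and -0.00548 to 0.344 for Runx1. The cause of these changes was not tested. Depth limited what could be seen to the 765482 to 1536110 UMIs of the members of a library.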
